A study of Mus musculus with 8 samples.

Results

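The nuclear genes of oxidative phosphorylation were followed in 8 germline stem (GS) cell lines. Members were chosen by gene name: the NADH dehydrogenase subunit families Ndufa, Ndufb, Ndufc, Ndufs and Ndufv, the 4 succinate dehydrogenase genes, and names starting with Uqcr, Cox4 to Cox8 or Atp5, leaving out 2 names that mark pseudogenes. This gave 84 of the 31010 genes listed, with 35 in complex I, 4 in complex II, 8 in complex III, 20 in complex IV and 17 in complex V. Ndufa4 and Ndufa4l2, although named for complex I, were counted with complex IV, where the Ndufa4 protein resides.

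GS cells are cultured spermatogonia, enriched for stem cells, that self-renew in medium containing GDNF and FGF2. All 8 lines carried the B6 name in their titles, were labelled wild type, and grew in the same medium. The ICSI group (lines 11, 17, 20 and 21) came from ICSI-F1 mice, the offspring produced by injecting a sperm into an oocyte. The control group (lines 29, 37, 44 and 45) came from control-F1 mice sired by natural mating. The starting cells were spermatogonia of mature testes, selected magnetically for the surface protein CD9, and the ages of the mice are not given. The study uses the same numbers for single F1 mice, and litters are not given. Here n counts lines, and the p-values measure the spread between these lines. Titles joined by hyphens (set 1) belong to control lines 29 and 37 with ICSI lines 11 and 17. Titles joined by the low line character (set 2) belong to control lines 44 and 45 with ICSI lines 20 and 21. The submitters' notes name different software versions for the sets, and nothing else about what separates them is stated.

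Oxidative phosphorylation is carried out in the inner mitochondrial membrane. Complexes I and II pass electrons from NADH and succinate to ubiquinone, complex III passes them to cytochrome c, and complex IV hands them to oxygen. Complexes I, III and IV pump protons, and complex V, the ATP synthase, uses the returning protons to make ATP. Most subunits are encoded in the nucleus, and a small set is encoded by mitochondrial DNA. Spermatogonial stem cells in culture are known for a strong use of glycolysis, and later germ cells carry their own forms of several subunits.

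The transcription factors NRF1, GABPA (an ETS factor), YY1 and ERR are known to act at promoters of respiratory genes. RefSeq promoter windows (GRCm38.p6, 250 bases before to 50 after a gene's start) were matched to 68 of the 84 members, in 73 windows, and searched on both strands for fixed letters. The NRF1 letters GCATGCGC were in 13.7% of member windows and in 3.52% of the 21263 windows of all protein-coding genes. The ETS letters CCGGAAG were in 23.3% of member windows against 11.6% of all, and the YY1 letters AAGATGGC in 13.7% against 3.05%. The ERR letters TCAAGGTCA were in only 2 of the 73 member windows (2.74%) against 0.334% of all. The Sp1 letters GGGCGG were in 39.7% against 46.2%, and TATAAA was in 12.3% against 12.6%. None of these strings contains another, and a match is a description of letters, not a measured site. The stretches below are shown because 3 of the genes (Atp5j, Cox7b2 and Uqcrfs1) differed between the sets, and the other genes are examples from each complex with NRF1 or ETS letters within the stretch printed. They were taken as the alphabetically leading gene among those whose printable stretch held the most kinds of NRF1, ETS, YY1 and ERR letters, so full windows of other members can hold more kinds. Atp5j has 2 windows, of which the upstream one is shown, and the other held ETS and YY1 letters. Each is 120 bases long, 5′ to 3′ on the gene's strand, taken as near to the start as allowed by at most 30 annotated exon bases, and capitals mark the letters found.
Atp5j, chr16:84835626-84835745, minus strand, with Sp1 letters: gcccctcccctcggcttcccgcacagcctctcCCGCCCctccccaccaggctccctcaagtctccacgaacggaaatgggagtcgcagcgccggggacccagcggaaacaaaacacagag
Cox7b2, chr5:71548206-71548325, minus strand, with Sp1 letters: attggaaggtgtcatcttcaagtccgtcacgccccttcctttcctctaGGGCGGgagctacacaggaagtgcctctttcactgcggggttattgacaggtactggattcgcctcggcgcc
Uqcrfs1, chr13:30545333-30545452, minus strand, with none of the letters: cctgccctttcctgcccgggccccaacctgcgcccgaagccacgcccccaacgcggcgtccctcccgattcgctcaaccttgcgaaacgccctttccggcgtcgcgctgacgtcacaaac
Ndufa6, chr15:82354293-82354412, minus strand, with NRF1 letters: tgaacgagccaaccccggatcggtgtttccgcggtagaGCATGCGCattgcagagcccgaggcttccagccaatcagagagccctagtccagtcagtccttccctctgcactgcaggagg
Sdhb, chr4:140961113-140961232, plus strand, with NRF1 and Sp1 letters: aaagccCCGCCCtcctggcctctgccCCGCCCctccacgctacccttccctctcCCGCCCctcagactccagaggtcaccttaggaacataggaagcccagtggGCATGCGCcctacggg
Uqcr11, chr10:80406822-80406941, minus strand, with ETS letters: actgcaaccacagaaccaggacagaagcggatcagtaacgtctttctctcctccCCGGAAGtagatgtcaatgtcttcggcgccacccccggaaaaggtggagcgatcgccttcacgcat
Cox6a1, chr5:115348959-115349078, minus strand, with ETS and Sp1 letters: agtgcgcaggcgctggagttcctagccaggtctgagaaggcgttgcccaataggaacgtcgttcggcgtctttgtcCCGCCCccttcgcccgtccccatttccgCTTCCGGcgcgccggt
Atp5e, chr2:174464102-174464221, minus strand, with ETS and Sp1 letters: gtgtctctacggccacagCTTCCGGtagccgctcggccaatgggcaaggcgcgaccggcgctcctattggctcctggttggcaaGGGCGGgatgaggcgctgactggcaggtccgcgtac

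The values are FPKM, reads of a gene scaled to its length and to the size of the library, as deposited. Whole reads were recovered from the steps between low FPKM values, and they numbered 24665385 to 26618564 per line in set 1 and 32314293 to 44207790 in set 2. Members took 0.818% to 1.04% of these reads. GS cell identity was checked with a list of 13 genes of undifferentiated spermatogonia, all of which were above 1 FPKM on average (Ddx4 had 224 FPKM and Zbtb16 had 61.9 FPKM over the 8 lines). Of 15 genes of differentiating and meiotic germ cells, 11 also reached a mean of 1 FPKM. Among them were Sohlh1 (120 FPKM), Sycp3 (103 FPKM) and Kit (5.91 FPKM), while Prm1 and Prm2 were listed at 0. The lists therefore do not show the lines to be solely undifferentiated. Of 7 Sertoli cell genes, Sox9 (2.18 FPKM), Wt1 (2.08 FPKM) and Rhox5 (1.07 FPKM) reached a mean of 1 FPKM. Gata4, Inha, Cldn11 and Amh stayed below, from 0.502 FPKM (Gata4) down to 0.0359 FPKM (Amh). The summed level was 5.55 to 9.14 FPKM per line. Of 6 Leydig cell genes Star (1.24 FPKM) reached a mean of 1 FPKM. Insl3 had 0.00763 FPKM and Cyp17a1 was listed at 0, and the sum was 0.669 to 1.90 FPKM. All 18 fibroblast genes were detected, and their summed level ran from 280 to 1199 FPKM in the control lines and from 376 to 724 FPKM in the ICSI lines. According to the paper, embryonic fibroblasts of the cultures were removed on gelatin-coated plates before collection. Levels given here describe whole cultures and not GS cells alone. In bulk RNA, fewer cells of a type and less RNA per cell cannot be told apart.

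Transcripts of nearly the whole set were detected in the GS cell cultures. Of the 84 members, 83 were above 0 in at least some lines, 72 had a mean over 10 FPKM and 12 had a mean over 100 FPKM. The median of the 80 members with a mean of at least 1 FPKM was 50.9 FPKM, against 8.58 FPKM for the 12000 genes that passed the same minimum. The 4 members below the minimum were Cox8b, listed at 0 in every line, Cox6a2 (mean 0.143 FPKM), Cox4i2 (0.772 FPKM) and Atp5l (0.860 FPKM). These 4 were left out of the tests.

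**Figure D1:**
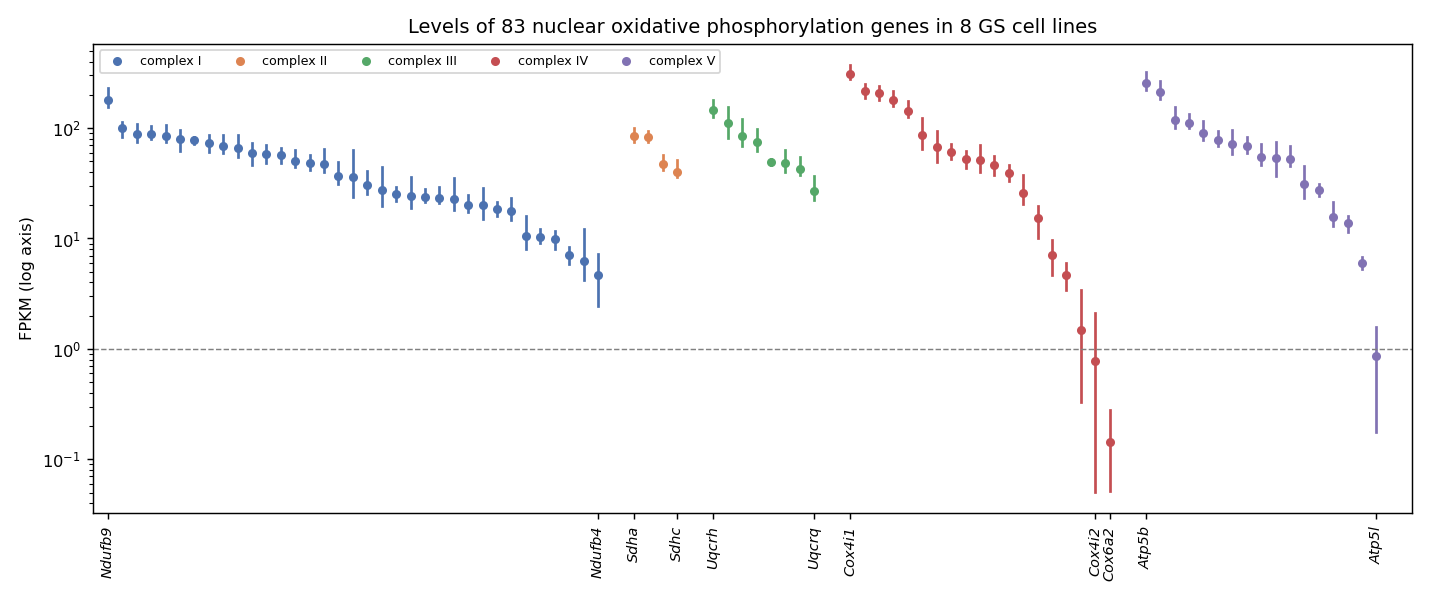
Mean FPKM over 8 lines (points, log axis) and the range from the lowest to the highest line (bars) for 83 members, grouped by complex, with names for the highest and lowest of each complex and for those under 1 FPKM; Cox8b, at 0, is not drawn and the dashed line marks 1 FPKM. Cox4i1 stood highest at 306 FPKM, and 3 members, Cox4i2, Cox6a2 and Atp5l, had means under the dashed line.

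Complex I takes electrons from NADH. Its member with the highest level was Ndufb9, an accessory subunit, at 180 ± 24.3 FPKM (SD over 8 lines), and the lowest was Ndufb4, another accessory subunit, at 4.64 ± 1.42 FPKM. Nuclear core subunits, which carry the flavin, the iron-sulphur clusters and the route to ubiquinone, spread over a narrower range. Ndufv1, which binds NADH, had 89.2 ± 10.6 FPKM and Ndufs8 had 88.6 ± 9.79 FPKM. Ndufv2 had 30.6 ± 5.76 FPKM. Ndufs7 (25.3 ± 2.30 FPKM), Ndufs1 (23.2 ± 2.62 FPKM) and Ndufs3 (20.2 ± 2.23 FPKM) were lower. This order depends on the gene length used. Over the length of the principal transcript, taken up below, Ndufv2 (38.7) was under Ndufs1 (70.4), Ndufs7 (57.3) and Ndufs3 (42.0).

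Complex II, which is also an enzyme of the citric acid cycle, had its 4 genes between 40.0 and 84.6 FPKM. Sdha, the flavoprotein, had 84.6 ± 7.79 FPKM and Sdhd, a membrane anchor, had 82.4 ± 7.36 FPKM, a difference smaller than either SD. Sdhb, the iron-sulphur subunit, had 46.9 ± 4.90 FPKM and the second anchor Sdhc had 40.0 ± 5.08 FPKM. Over principal transcripts the means were 120 (Sdha), 82.4 (Sdhd), 92.0 (Sdhb) and 41.0 (Sdhc). In complex III, the hinge protein gene Uqcrh was highest at 144 ± 19.9 FPKM and Uqcrq was lowest at 26.7 ± 5.26 FPKM. The core proteins Uqcrc1 and Uqcrc2 had 49.2 ± 2.49 and 42.5 ± 6.00 FPKM, and the Rieske iron-sulphur protein Uqcrfs1 had 47.8 ± 8.69 FPKM.

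Complex IV held both the highest member of all, Cox4i1 at 306 ± 30.3 FPKM, and the members nearest to 0. Cox5a and Cox5b, subunits on the matrix side, had 51.3 ± 9.58 and 46.1 ± 7.23 FPKM. In the ATP synthase, the catalytic beta subunit Atp5b had 255 ± 31.9 FPKM, the alpha subunit Atp5a1 had 213 ± 27.0 FPKM and the gamma shaft Atp5c1 had 117 ± 16.5 FPKM. Alpha and beta are present in equal number in the enzyme. Their mean levels differed by less than the sum of the SDs, but Atp5b was above Atp5a1 in every line. Over the length of the principal transcript, taken up below, the means were 564 for Atp5b and 270 for Atp5a1. Atp5l, the g subunit, was lowest at 0.860 ± 0.532 FPKM. Of 6513 stretches of Atp5l transcripts as long as a read, 394 were shared with 21 other genes, 8 of them pseudogenes. Whether these stretches fall in the principal transcript was not examined, so the level of Atp5l is uncertain over either length.

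Levels per length depend on the length used. The FPKM steps matched the length of all annotated exons together, which for Atp5l is 6443 bases against 544 bases for its principal transcript. Over the length of the principal transcript the mean of Atp5l was 10.2 in place of 0.860. On the same scale Cox4i1 (636) and Atp5b (564) remained the 2 highest members, and Atp5mpl, a small ATP synthase protein, moved from 91.0 FPKM to 303. This choice moves the level of a gene by its own factor in all lines, so the order of genes can change. It leaves differences between lines as they were, apart from the effect of the added 1.

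Several subunits have more than one gene, and the cultures held mainly transcripts of the widely expressed form of most pairs. Cox4i1 had 306 FPKM and the hypoxia-linked form Cox4i2 0.772 FPKM. Cox6a1 had 216 FPKM against 0.143 FPKM for the heart and muscle form Cox6a2. For subunit 8, Cox8a had 209 FPKM, the testis form Cox8c 15.3 FPKM and the muscle form Cox8b was listed at 0. For subunit 6b, Cox6b1 had 181 FPKM and the testis form Cox6b2 4.65 FPKM, a ratio of 0.0180 to 0.0382 across the lines. Cox7a2 had 144 FPKM, Cox7a2l, which is known to join complexes III and IV, 52.8 FPKM, and the muscle form Cox7a1 7.13 FPKM. Ndufa4 had 67.9 FPKM and the hypoxia-inducible Ndufa4l2 1.48 FPKM. Of the genes for the c ring of the ATP synthase, Atp5g3 had 68.2 FPKM, Atp5g1 13.7 FPKM and Atp5g2 6.04 FPKM. Over principal transcripts Atp5g1 (14.3) and Atp5g2 (23.0) changed places, with lengths of 4715 and 441 bases. Where several transcripts were marked principal the leading one by name was used, so this swap may depend on that choice. Of the 76-base stretches of Atp5g2, 35.7% were shared with other genes.

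Subunit 7b went the other way. The form known from testis, Cox7b2, was above Cox7b in every line, with means of 86.9 ± 19.6 and 39.1 ± 4.55 FPKM. In set 1 the ratio of Cox7b2 to Cox7b was 1.62 and 1.56 in the control pair (29, 37) and 1.91 and 2.39 in the ICSI pair (11, 17). In set 2 it was 2.65 and 2.45 in the control pair (44, 45) and 2.69 and 2.64 in the ICSI pair (20, 21). All lines of set 2 lay above all lines of set 1. Over principal transcripts the mean ratio was 1.85 in place of 2.24. No 76-base stretch of Cox7b2 transcripts was shared with another gene.

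**Figure D2:**
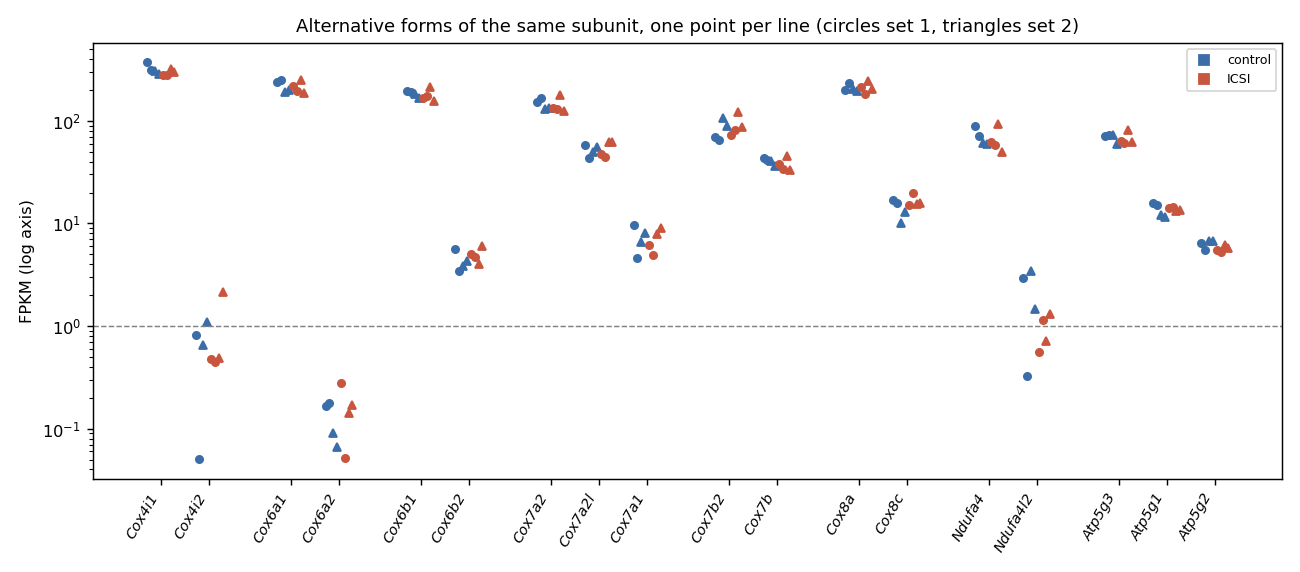
FPKM (log axis) of alternative forms of the same subunit, with 1 point per line, control in blue, ICSI in red, circles for set 1 and triangles for set 2, and a dashed line at 1 FPKM. Cox7b2 lies above Cox7b in every line (ratio 1.56 to 2.69), and in the 7a family the mean of Cox7a2 (144 FPKM) stands above that of Cox7a2l (52.8 FPKM).

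The design compares expression in GS cells of ICSI-F1 mice with that in GS cells of control-F1 mice. For the oxidative phosphorylation genes no difference was detectable with 4 lines a group. None of the 80 members tested passed an adjusted p of 0.05 (limma on log2(FPKM + 1), Benjamini-Hochberg over 12000 genes), and the background was 0% of the 12000. At an unadjusted p of 0.05 the counts were 0 members and 55 genes (0.458%). This fit had no term for the set, so differences between the sets add to its SE and make it cautious. With set as covariate the counts were 0 members and 140 genes, and 0 genes passed adjustment. The median difference, ICSI minus control, was -0.04 on the log2 scale for the members and -0.01 for all genes tested. The control and ICSI lines did not overlap for 0.442% of all genes and for 0 members. The SE of the difference was 0.09 to 0.35 on the log2 scale, and the members' differences ran from -0.53 to 0.26.

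By complex, the median differences were -0.03 in complex I, 0.02 in complex II, -0.08 in complex III, -0.06 in complex IV and -0.05 in complex V. ICSI was the lower group for 58 of the 80 members and for 55.7% of all genes. The groups overlapped in each member named here.

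The member with the smallest p among those higher in ICSI lines was Cox8c, the testis form of subunit 8. Its levels were 16.9, 15.7, 10.0 and 13.1 FPKM in the control group (29, 37, 44, 45) and 15.3, 19.6, 15.6 and 16.0 FPKM in the ICSI group (11, 17, 20, 21). Control line 44 was lowest and ICSI line 17 highest, and the groups overlapped. The difference was 0.26 ± 0.16 (log2, SE), with an unadjusted limma p of 0.146 and an adjusted p of 1.00. Atp5o, the stalk protein also called OSCP, had 106 ± 8.48 FPKM (SD, n = 4) among control and 118 ± 11.2 FPKM among ICSI lines, a log2 difference of 0.16 ± 0.11 (SE). For Atp5o, 33.9% of 76-base stretches were shared with other genes, chiefly an antisense gene, and since the strandedness of the libraries is uncertain its level is uncertain too. Cox6b2 (0.17 ± 0.16), Sdha (0.10 ± 0.11) and Cox7b2 (0.13 ± 0.20) completed the 5 with the smallest p in this direction.

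In the other direction the member with the smallest p was Ndufa4l2, which had 2.93, 0.329, 3.43 and 1.47 FPKM in the control group (29, 37, 44, 45). The ICSI group (11, 17, 20, 21) had 0.556, 1.13, 0.708 and 1.297 FPKM. Control line 37 was the lowest of all and control lines 29 and 44 the highest. The difference was -0.53 ± 0.35 (log2, SE), with an unadjusted limma p of 0.158, an adjusted p of 1.00 and as few as 9 reads in a line. Atp5g2 (-0.14 ± 0.11), Ndufa10 (-0.13 ± 0.12), Atp5h (-0.23 ± 0.22) and Ndufa1 (-0.29 ± 0.28) followed. Of the 76-base stretches of Atp5g2, 35.7% were shared with other genes, so its level is uncertain. The exact two-sided permutation test of single members over the 70 assignments of lines, whose smallest possible p is 0.0286, gave no p below 0.114 (unadjusted).

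What the members did show, in FPKM as deposited, was a common order of the lines, which changed with other scalings (below). Summed over the 84 members, the control group (29, 37, 44, 45) had 5698, 5337, 5080 and 4977 FPKM. The ICSI group (11, 17, 20, 21) had 4894, 4759, 6296 and 4695 FPKM. ICSI line 20 was the highest line and the other ICSI lines were the 3 lowest.

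The same held gene by gene. Relative to each gene's mean over the 8 lines, the median position of the 80 members was 0.26 (log2) in ICSI line 20, and control line 29 followed at 0.14. Control lines 37, 44 and 45 stood near 0 at 0.01, -0.02 and -0.03. The remaining ICSI lines (11, 17, 21) stood at -0.11, -0.13 and -0.16. The medians over all 12000 genes stayed between -0.03 and 0.03. ICSI line 20 was the highest of the 8 lines for 55 of the 80 members, against 20.6% of all genes, and control line 29 for 17 members against 13.1%. ICSI line 21 was the lowest line for 33 members against 9.89% of all genes.

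The pattern ran through the complexes. In ICSI line 20 the median position was 0.26 in complex I, 0.26 in complex II, 0.31 in complex III, 0.23 in complex IV and 0.34 in complex V. In ICSI line 21 the medians were between -0.19 and -0.09. Ndufa1, a small accessory subunit of complex I, showed the order most plainly, reaching 62.7 FPKM in ICSI line 20, while the level was 23.8 to 25.3 FPKM in ICSI lines 11, 17 and 21 and 34.0 to 44.1 FPKM in the control group. Atp5b reached 319 FPKM there, while ICSI lines 11, 17 and 21 had 222 to 238 FPKM and the control group 248 to 280 FPKM. Uqcrc2 had 55.01 FPKM in ICSI line 20 and 37.2 to 45.7 FPKM elsewhere. Uqcrc1, the companion core protein, had the smallest spread of all members tested (SD of log2(FPKM + 1) 0.07) and ran from 46.0 FPKM in ICSI line 21 to 52.2 FPKM in control line 37.

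Other small spreads were those of Ndufa13 (0.09), Atp5j2 (0.12), Ndufv3 (0.12) and Atp5g2 (0.12), and the largest were those of Ndufa4l2 (0.61), Ndufa1 (0.47), Ndufb2 (0.43), Ndufb4 (0.37) and Atp5h (0.36). The median SD was 0.18 for the members and 0.21 for all genes tested. Ndufb2 owed its spread to control line 29, which had 12.1 FPKM against 4.19 to 6.84 FPKM elsewhere, and Ndufb4 had 2.43 FPKM in control line 37 and 7.23 FPKM in ICSI line 20.

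**Figure D3:**
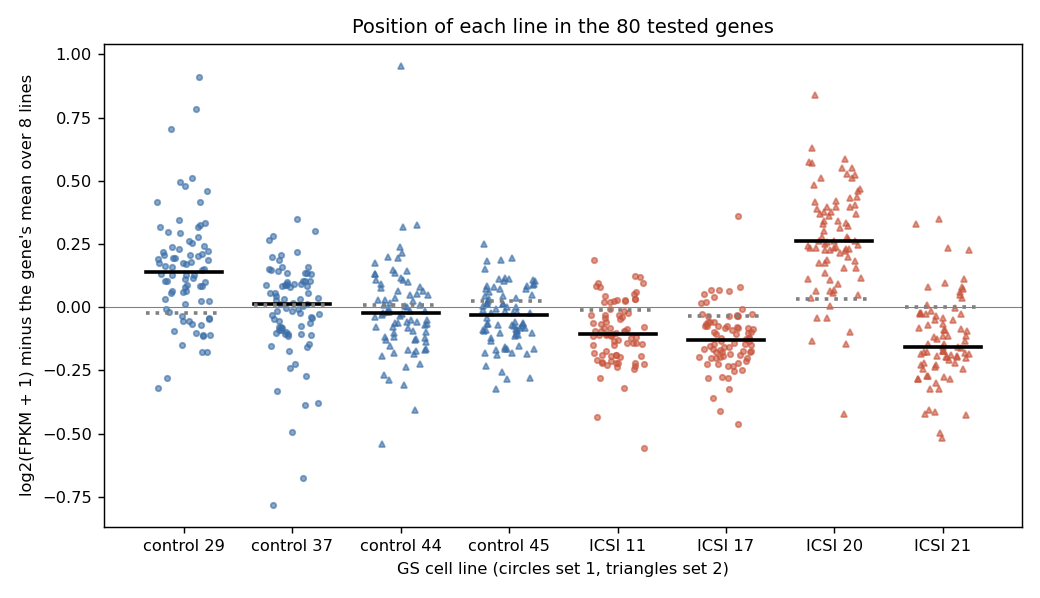
Each point is 1 of the 80 tested members, drawn for each line as log2(FPKM + 1) minus the gene's mean over the 8 lines, with control in blue, ICSI in red, circles for set 1 and triangles for set 2. Black bars are the members' medians and dotted grey bars the medians of all 12000 genes; the members' median is 0.26 in ICSI line 20 and -0.16 in ICSI line 21.

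Other measures followed the order in part, and their role in it was not tested. Control line 29 and ICSI line 20 were also high in both measures that follow, while the remaining lines were ordered differently. Fibroblast genes had median positions of 1.15, 0.81 and 0.32 in control line 29, control line 44 and ICSI line 20, and of -1.09 in control line 45, with the other lines between -0.42 and -0.01. Without control line 29 or without ICSI line 20 the group comparison of the members still gave 0 calls. The 1065 genes of at most 1500 bases, a class that held 39 of the 80 members, had medians of 0.10 in ICSI line 20, 0.07 for control 29 and -0.06 for control 45. The size of the pattern and the order of the lines depended on the scaling. With each line rescaled to TPM, which sums to the same total in every line, ICSI line 20 was the highest line for 34 of the 80 members and 11.6% of all genes, and with quantile normalization for 26 members and 16.6%. The medians of the members in ICSI line 20 were then 0.15 and 0.10, below control line 29 at 0.19 and 0.20. Control line 44 was then the lowest at -0.11 and -0.16, with ICSI line 21 at -0.10 and -0.13.

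The order was not particular to these genes. The 13 citric acid cycle genes had median positions of 0.20 in ICSI line 20, 0.09 in control line 29 and -0.15 in both ICSI lines 17 and 21. The 75 mitochondrial ribosome genes had 0.18 in ICSI line 20 and 0.10 in control line 29. Among the 13 subunits encoded by mitochondrial DNA the order was another one. Of these, 6 (mt-Co2, mt-Atp8, mt-Atp6, mt-Co3, mt-Nd3 and mt-Nd4l) were listed at or next to 0 in every line and were not tested, and the other 7 had median positions of 0.54 (ICSI 11), 0.44 (control 37) and 0.40 (ICSI 17). Control line 44 (-0.04) and ICSI line 20 (-0.10) were in the middle, and control line 45 (-0.38), control line 29 (-0.47) and ICSI line 21 (-0.59) were lowest. In the values as deposited ICSI line 21 was thus lowest for both genomes. Control line 29 was among the highest lines for the nuclear genes and among the lowest for the mitochondrial ones.

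Within set 1 the groups separated for most members. Both ICSI lines lay below both control lines for 53 of the 80 members, against 20.5% of all genes, and above them for 5 members against 17.7%. Within set 2 both ICSI lines lay below both control lines for 2 members (5.88% of all genes) and above them for 5 members (5.17%), and instead ICSI line 20 lay above both control lines for 74 members, against 32.2% of all genes, and ICSI line 21 below both for 58, against 34.6%. With TPM the count of members with both ICSI lines lower in set 1 was 37 against 16.2% of all genes, and with quantile normalization it was 32 against 18.0%.

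The median ICSI minus control difference of the members was -0.18 in set 1 and 0.10 in set 2, and that of all genes was -0.02 and -0.01. The medians in set 1 were -0.17 in complex I, -0.04 in complex II, -0.25 in complex III, -0.24 in complex IV and -0.16 in complex V. Altogether 66 of the 80 members were lower in the ICSI lines of set 1 and higher in those of set 2, as were 26.5% of all genes. The exceptions with the same sign in both sets were, on the higher side, Ndufc2, Ndufb4, Sdha, Sdhc, Uqcrfs1, Cox7b2, Cox8c, Cox6b2, Atp5o and Atp5j, and, on the lower side, Ndufv1, Ndufa10, Ndufa4l2 and Atp5g2.

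The test of the difference between the sets gave no call. The interaction of group and set passed an adjusted p of 0.05 in limma for 0 of the 80 members and 0% of all genes, and an unadjusted p of 0.05 for 3 members and 1.23% of all genes. The 3 members were Ndufs5 (0.47 ± 0.19, log2, SE), Atp5md (0.65 ± 0.26) and Uqcrq (0.61 ± 0.26). The median interaction was 0.28 for the members and 0.00 for all genes, and the members' median was 0.08 without ICSI line 20 and 0.49 without ICSI line 21. Members share the same lines and are not independent of each other, so the number that point one way is 1 observation on 8 lines and not 80.

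**Figure D4:**
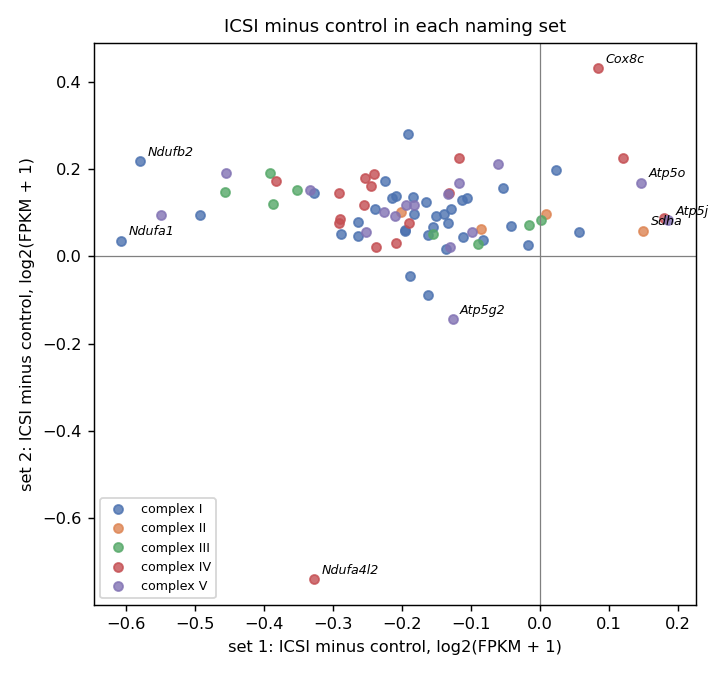
Difference of the means of log2(FPKM + 1), ICSI minus control, in set 1 (horizontal axis) and in set 2 (vertical axis), with 1 point per member tested, coloured by complex. Most members (66 of 80) lie in the upper left, lower in the ICSI lines of set 1 and higher in those of set 2, where ICSI line 20 was the higher ICSI line for most.

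The pooled comparison depended on ICSI line 20. Without it, 9 of the 80 members had an unadjusted p under 0.05 in limma against 3.18% of all genes, none passed adjustment, and the median difference of the members was -0.15 against -0.02 for all genes. The other 3 ICSI lines then lay below all 4 control lines for 15 of the 80 members and for 2.82% of all genes. This is a description of the remaining lines, since the line was singled out after its values were seen.

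Between the sets, adjusting for group, few members differed although many genes did. Of the 80 members, 4 passed an adjusted p of 0.05 (5.00%), against 16.0% of all genes. The 3 that were higher in set 2 stood against 10.2% of all genes, and the 1 that was lower against 5.76%. At an unadjusted p of 0.05 there were 9 members and 35.4% of all genes. The lines of the sets did not overlap for 6 of the 80 members (Ndufa11, Sdhc, Uqcrfs1, Cox7b2, Atp5j and Atp5g1) and for 26.8% of all genes.

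Uqcrfs1 encodes the Rieske iron-sulphur protein of complex III (ENSMUSG00000038462, chr13:30540308-30545362, GRCm38, minus strand). Set 1 (control 29 and 37, then ICSI 11 and 17) had 41.6, 39.8, 41.2 and 40.3 FPKM, and set 2 (control 44 and 45, then ICSI 20 and 21) had 49.96, 56.4, 63.4 and 49.92 FPKM. All lines of set 2 were above all lines of set 1. The difference was 0.42 ± 0.09 on the log2 scale (SE, limma, adjusted p = 0.0264).

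Atp5j encodes coupling factor 6, part of the stalk that holds the ATP synthase together (ENSMUSG00000022890, chr16:84827866-84835625, minus strand). In the same order it had 24.1, 23.0, 25.8 and 28.2 FPKM in set 1 and 38.3, 32.8, 45 and 31.5 FPKM in set 2. The sets did not overlap, and the difference was 0.52 ± 0.12 (log2, SE, limma, adjusted p = 0.0267). Cox7b2 (ENSMUSG00000049387, chr5:71442824-71548205, minus strand) had 69.96, 65.2, 72.8 and 80.7 FPKM in set 1 and 106, 89.4, 123 and 87.2 FPKM in set 2. Its sets did not overlap either, with a difference of 0.48 ± 0.12 (log2, SE, limma, adjusted p = 0.0338).

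Ndufa11, an accessory subunit in the membrane arm of complex I, was the member called lower in set 2 (ENSMUSG00000002379, chr17:56717767-56722141, plus strand). It had 96.1, 94.3, 89.0 and 81.9 FPKM in set 1 and 70.2, 62.3, 73.1 and 65.9 FPKM in set 2, with no overlap. The difference was -0.41 ± 0.09 (log2, SE, limma, adjusted p = 0.0236). Uqcr11, a small subunit of complex III, came next with 155, 139, 114 and 111 FPKM in set 1 and 87.7, 89.2, 113 and 81.9 FPKM in set 2. ICSI line 20 lay within set 1, and the difference of -0.47 ± 0.14 missed the threshold (log2, SE, limma, adjusted p = 0.0521). With TPM (adjusted p = 0.0309), quantile normalization (adjusted p = 0.0141), limma-voom (adjusted p = 0.0362) or a minimum mean of 5 FPKM (adjusted p = 0.0464) it passed. It passed as well with no group term (adjusted p = 0.0390) and without ICSI line 20 (adjusted p = 0.0184).

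**Figure D5:**
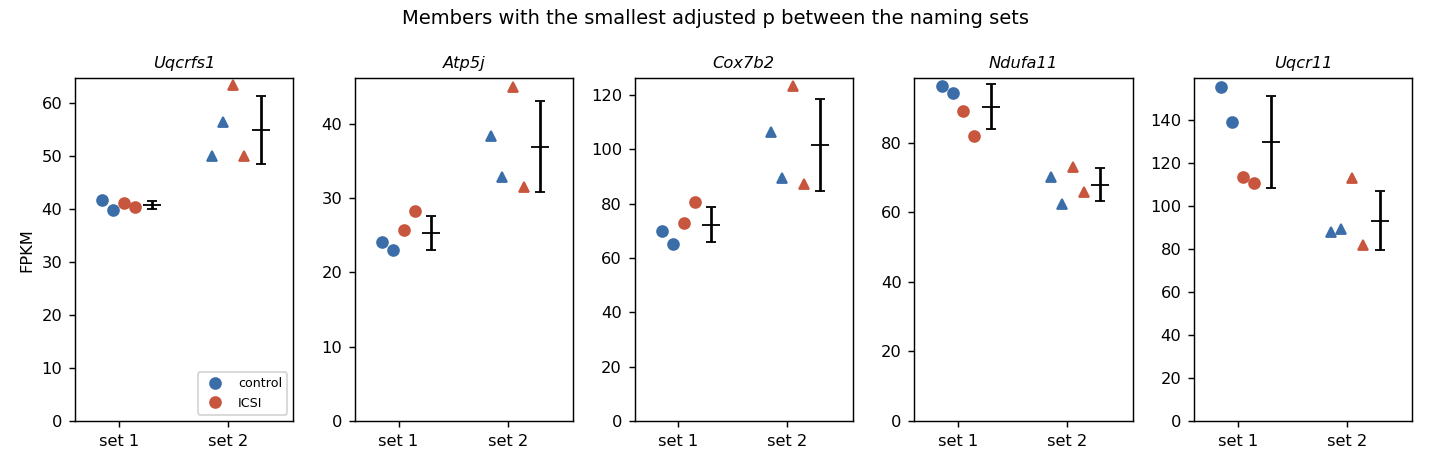
FPKM of 5 members in each line, by set, with control in blue and ICSI in red; black marks are the mean ± SD of the 4 lines of a set. The sets do not overlap for Uqcrfs1, Atp5j, Cox7b2 and Ndufa11, and for Uqcr11 ICSI line 20 (113 FPKM) reaches into the range of set 1.

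Several members with the next smallest p did not pass. Higher in set 2 were Ndufc1 (0.37 ± 0.14), Cox5a (0.33 ± 0.13), Ndufb4 (0.45 ± 0.20), Cox7a2l (0.26 ± 0.12) and Ndufa10 (0.20 ± 0.09), with adjusted p from 0.0976 to 0.152 (limma). Lower in set 2 were Atp5g1 (-0.23 ± 0.09), Cox8c (-0.30 ± 0.13), Ndufb2 (-0.47 ± 0.23), Cox5b (-0.25 ± 0.13), Atp5d (-0.18 ± 0.09) and Ndufb8 (-0.35 ± 0.18), with adjusted p from 0.0990 to 0.210 (limma). Sdhc (36.9 ± 1.00 FPKM in set 1 and 43.2 ± 5.74 FPKM in set 2, SD, n = 4) and Atp5g1 (14.9 ± 0.818 and 12.5 ± 0.935 FPKM) had sets that did not overlap. So did Atp5l, which was under the minimum, with 0.938 to 1.57 FPKM in set 1 and 0.175 to 0.688 FPKM in set 2.

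The 4 calls depended on the lines included. Leaving out ICSI line 11, ICSI line 17 or control line 37 left 0 members called, and leaving out control line 44 or control line 45 left 1. Without control line 29 or ICSI line 20 there were 4, and without ICSI line 21 there were 6. Over the whole table the number of genes called ran from 210 to 2691 at the same time. Without any minimum level 2 of 83 members and 1255 of 23964 genes were called. With quantile normalization it was 8 of 80 members, 3 of them higher in set 2, and 1991 of 12000 genes. In limma-voom on recovered reads Uqcrfs1 (adjusted p = 0.0542) and Cox7b2 (adjusted p = 0.0645) missed the threshold. With no minimum level Cox7b2 (adjusted p = 0.0672) and Atp5j, at the threshold itself, missed it in limma. Depth also differed, with every library of set 2 deeper than every library of set 1, and 7 of the 13 genes of undifferentiated spermatogonia were higher in set 2 (limma, adjusted p under 0.05), beside 10.2% of all genes. Their summed level was 597 to 731 FPKM in set 1 and 880 to 1155 FPKM in set 2. Of 11 tested genes of differentiating and meiotic germ cells, Sycp3 (0.64 ± 0.12) and Sycp1 (0.55 ± 0.13) were higher and Kit (-0.80 ± 0.21) was lower in set 2, and of 3 tested Sertoli cell genes Sox9 (1.03 ± 0.23) was higher and Wt1 (-0.82 ± 0.15) lower (log2, SE, limma, adjusted p from 0.0150 to 0.0351). The part of depth or of cell makeup in the set differences was not tested.

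Genes that build, feed and regulate the complexes were taken from lists of other genes of the pathway. Between control and ICSI lines none of these passed the test. Between the sets, of 49 assembly factors tested 6 were higher and 2 lower in set 2 (16.3%, beside 16.0% of all genes). For complex I, the membrane factor Timmdc1 was higher (26.8 against 42.9 FPKM, 0.67 ± 0.11, log2, SE, limma, adjusted p = 0.0121) and Ecsit was lower (15.3 against 11.8 FPKM, -0.35 ± 0.09, limma, adjusted p = 0.0358). For complex V, Tmem70, which helps the c ring to assemble, was higher (0.56 ± 0.09, limma, adjusted p = 0.0123), as was Atpaf1, a chaperone of the beta subunit (0.45 ± 0.10, limma, adjusted p = 0.0267). For complex IV, Sco1, a copper chaperone, was higher by 0.47 ± 0.12 and Cmc1 by 0.35 ± 0.10, while Cox10, which makes heme A precursor, was at -0.33 ± 0.09, with adjusted p from 0.0336 to 0.0405 (limma). The complex II factor Sdhaf4 was higher by 0.36 ± 0.10 (limma, adjusted p = 0.0475).

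Of the 13 regulators tested, 4 were higher in set 2, beside 10.2% of all genes, and 1 was lower, beside 5.76%. Gabpa, the ETS factor whose letters were searched above, had 18.3 FPKM in set 1 and 29.5 FPKM in set 2 (0.67 ± 0.09, limma, adjusted p = 0.00888). It shares some stretches with the member Atp5j, as given above. Yy1 had 7.62 and 11.0 FPKM (0.49 ± 0.10, limma, adjusted p = 0.0190), Nfe2l2 22.6 and 35.0 FPKM (0.60 ± 0.14, limma, adjusted p = 0.0282) and Tfam, which packages mitochondrial DNA, 15.7 and 20.5 FPKM (0.37 ± 0.09, limma, adjusted p = 0.0288). Pprc1, a coactivator, was lower (67.6 and 54.8 FPKM, -0.29 ± 0.08, limma, adjusted p = 0.0425). Nrf1 itself had 7.02 and 6.50 FPKM and did not pass. The better known coactivator genes Ppargc1a (0.102 FPKM) and Ppargc1b (0.666 FPKM) were under the minimum, and Perm1 was near 0.

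Around the electron carriers none of 13 genes passed between the sets. The testis form of cytochrome c, Cyct, had 76.5 FPKM and the somatic form Cycs 8.31 FPKM over the 8 lines. Stretches shared with other genes were examined for the members only. The levels of Cyct and Cycs were not checked in this way, so the size of their difference is uncertain. Of 13 citric acid cycle genes, Dld, the shared lipoamide dehydrogenase, was higher in set 2 (18.9 and 30.8 FPKM, 0.67 ± 0.13, limma, adjusted p = 0.0173), and the other 12 did not pass. Of 8 genes for lactate and pyruvate use none passed. Ldha had 58.6, 26.9, 62.9 and 77.5 FPKM in the control group (29, 37, 44, 45) and 28.6, 36.7, 35.3 and 91.1 FPKM in the ICSI group (11, 17, 20, 21). ICSI line 20, in FPKM as deposited the highest line for the oxidative phosphorylation genes, was among the lower lines for Ldha. ICSI line 21 was the highest for Ldha. None of the 7 mitochondrially encoded subunits tested passed, and the largest of these differences was that of mt-Cytb (-0.74 ± 0.26, limma, adjusted p = 0.0839).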

How the data were processed

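RNA of 8 GS cell lines was sequenced by the authors as single 76-base reads. They trimmed with cutadapt, mapped to mm10 with STAR, counted with HTSeq and deposited FPKM values; the submitters' notes give STAR 2.7.9a and HTSeq 0.13.5 for set 1 and STAR 2.6.0c and HTSeq 0.11.2 for set 2. The labels and the methods name different library kits, so strandedness is uncertain. The table also holds the authors' log2 fold changes and adjusted p-values, which were not used. Gene lengths and positions came from GENCODE M21 (GRCm38), in which all 84 members were found.

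Members and gene lists were chosen with earlier results of these data known. Genes whose mean reached 1 FPKM were tested on log2(FPKM + 1), which understates changes of low genes, with limma 3.58.1 (R 4.3.3, trend on mean expression, two-sided, Benjamini-Hochberg over 12000 genes, threshold 0.05), for ICSI against control without covariate, set 2 against set 1 with group as covariate, and their interaction. Whole reads were recovered within 0.01 for 99.4% of the genes above 0. The fits were tested on simulated data. Named genes were the highest and lowest member of each complex, the members with the smallest p (5 per direction for group, 8 for set), the 5 largest and 5 smallest spreads, core subunits and isoforms, and up to 3 genes of each other list by p; further genes (Tfam, Pprc1, Nrf1, Ppargc1a, Ppargc1b, Perm1, Cycs, marker genes, Atpaf1 and members given with the line order or the interaction) were added for context. Alternatives were other pseudocounts, filters, scalings, models and leaving out each line. The principal transcript length, the scaling of line positions and the interaction without each line were added after seeing the data. One member's own values are not reported here.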

Additional observations from a re-analysis of the deposited data

Results flagged for a closer look

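In groups of 4 lines, a line stood apart when its gap to the nearest other line was a larger share of the range than Dixon's 95% critical value. This held in 19 of 124 groups examined (15.3%), and the groups share the same lines. The nominal rate of about 1 in 20 is not a background for this share. Genes were examined in part because of their spread or small p in these data, and the share over all genes is not given. In 14 of the 19 flagged groups the line was ICSI line 20, on the high side. For the summed level it had 6296 FPKM against 4695 to 4894 in the other ICSI lines, for complex I 1936 against 1434 to 1510, for complex II 301 against 237 to 246, for complex IV 1789 against 1363 to 1432 and for complex V 1570 against 1123 to 1173. The 9 single genes flagged in this line were Sdhc (51.4 FPKM), Uqcrh (169), Atp5b (319), Ndufa1 (62.7), Cox7a2 (177), Atp5g3 (82.1), Ndufv2 (41.0), Ndufs1 (29.03) and Uqcrc2 (55.01).

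The other flags were spread over lines. Ndufb4 was low in control line 37 (2.43 FPKM against 4.94 to 5.32), Atp5g3 was low in control line 45 (59.7 against 70.9 to 73.2) and Cox8c was high in ICSI line 17 (19.6 against 15.3 to 16.0). In ICSI line 21 Uqcr11 was low (81.9 against 111 to 114) and Cox4i2, the hypoxia-linked form, was high (2.13 against 0.450 to 0.492).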

How the results depend on the processing

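No paired analysis was possible because the control and ICSI lines share no numbers. For ICSI against control, 0 members were called in every alternative run, and over all genes the count was 0 in each except without a minimum level, where 1 gene passed. Between the sets, 4 members and 1917 genes were called, 2 members and 1255 genes without a minimum level, and 8 members and 1991 genes with quantile normalization. The other settings that kept all lines gave 3 to 5 members and 1540 to 2507 genes. Leaving out one line gave 0 to 6 members and 210 to 2691 genes, and the numbers were 0 and 210 without ICSI line 11, 0 and 429 without ICSI line 17, 0 and 287 without control line 37, 1 and 675 without control line 44, 1 and 1061 without control line 45, 4 and 1044 without control line 29, and 4 and 1209 without ICSI line 20. The cause of these changes was not tested. The interaction gave 0 calls in every alternative run; without ICSI line 21, which leaves 1 ICSI line in set 2 that is assumed to vary like the other groups, 45 members and 783 genes had an unadjusted p under 0.05 in limma, and without ICSI line 20 0 members and 268 genes did. Of single members, Cox7b2 changed sign between control and ICSI lines without ICSI line 20; leaving out each line gave -0.020 to 0.26. Quantile normalization moved the members' median set difference from 0.05 to -0.10, and limma-voom to -0.02. Depth limits the lowest members: Ndufa4l2 had as few as 9 reads in a line, and the 4 members under the minimum were not tested.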
